A study of Homo sapiens with 45 samples.

Results

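GREB1, PDZK1, CXCL12, RET, CELSR2, CTSD, ELOVL2 and SIAH2 are genes that estrogen is long known to induce in breast cancer cells. They were followed here by name, as 8 of the 57353 gene symbols in a table of RNA sequencing counts from 3 breast cancer cell lines. The lobular lines were MDA-MB-134-VI (MM134) and MDA-MB-330 (MM330), both of invasive lobular carcinoma, and the third, HCC1428, is of invasive ductal carcinoma. All cells first spent 3 days in medium with charcoal-stripped serum, which holds little hormone. An siRNA, a small RNA duplex that leads to the breakdown of a matching transcript, was then transfected, and 24 h later estradiol (E2) or vehicle was added for another 24 h. Per line there were 5 groups of 3 libraries, 45 in all. Cells of siER_E2, siFOXA1_E2 and siMDC1_E2 had an siRNA against ER (the gene ESR1), FOXA1 or MDC1 plus 100 pM E2. Those of siNT_E2 had a non-targeting siRNA and the same dose of E2. Those of siNT had the non-targeting siRNA and, per the treatment protocol, 0.01% ethanol, although their own label reads untreated. Whether a group's 3 libraries stem from 3 cultures is not stated, so the p-values reflect the spread between these libraries only, which may be technical.

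Estradiol acts through the estrogen receptor, a transcription factor that ESR1 encodes and that binds estrogen response elements, mostly in enhancers far from the genes it induces. FOXA1 is a pioneer factor that opens chromatin at many of those enhancers, and MDC1 is a scaffold protein of the DNA damage response. Among the 8 genes, GREB1 encodes a cofactor of the receptor and PDZK1 a scaffold that anchors membrane transporters. CXCL12 encodes a chemokine, RET a receptor tyrosine kinase for ligands of the GDNF family, and CELSR2 an atypical cadherin of planar cell polarity. CTSD encodes cathepsin D, a lysosomal protease, ELOVL2 an elongase of polyunsaturated fatty acids, and SIAH2 a ubiquitin ligase.

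In the GENCODE release 29 annotation of GRCh38, GREB1 (ENSG00000196208.13) spans 11482341 to 11642788 on chromosome 2, plus strand, and PDZK1 (ENSG00000174827.13) 145670852 to 145708148 on chromosome 1, minus strand. CXCL12 (ENSG00000107562.16) spans 44370165 to 44386493 on chromosome 10, minus strand, RET (ENSG00000165731.18) 43077027 to 43130351 on the same chromosome, plus strand, and CELSR2 (ENSG00000143126.7) 109250019 to 109275750 on chromosome 1, plus strand. CTSD (ENSG00000117984.13) spans 1752752 to 1764573 on chromosome 11, ELOVL2 (ENSG00000197977.3) 10980759 to 11044314 on chromosome 6 and SIAH2 (ENSG00000181788.3) 150741127 to 150763477 on chromosome 3, each on the minus strand. All are protein-coding.

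RefSeq (GRCh38.p14) gave promoters, 250 bases before and 50 after a gene's start, for 7 of the 8 genes, all but GREB1. The full element, GGTCANNNTGACC on either strand, was in 0 of the 7 and in 0.057% of all 35116 promoters of that length. A single arm, GGTCA or its reverse TGACC, lay in 3 of the 7, PDZK1, CTSD and CXCL12, against 37.4% of all promoters. Those 3 are printed 5′ to 3′ on the gene's own strand, with each single arm in capitals. They are PDZK1 at chr1:145707351-145707650, minus strand, CTSD at chr11:1763878-1764177, minus strand, and CXCL12 at chr10:44385048-44385347, minus strand.
PDZK1: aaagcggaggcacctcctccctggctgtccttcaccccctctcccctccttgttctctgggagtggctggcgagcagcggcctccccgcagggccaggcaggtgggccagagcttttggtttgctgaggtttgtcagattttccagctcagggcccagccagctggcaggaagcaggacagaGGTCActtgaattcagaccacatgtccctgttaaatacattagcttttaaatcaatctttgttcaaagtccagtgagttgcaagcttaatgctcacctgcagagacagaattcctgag
CTSD: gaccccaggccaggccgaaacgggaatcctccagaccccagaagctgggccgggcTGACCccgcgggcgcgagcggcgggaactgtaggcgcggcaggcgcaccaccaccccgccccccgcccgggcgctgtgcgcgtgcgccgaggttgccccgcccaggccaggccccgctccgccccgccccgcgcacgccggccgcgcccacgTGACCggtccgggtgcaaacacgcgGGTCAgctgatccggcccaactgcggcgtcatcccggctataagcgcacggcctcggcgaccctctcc
CXCL12: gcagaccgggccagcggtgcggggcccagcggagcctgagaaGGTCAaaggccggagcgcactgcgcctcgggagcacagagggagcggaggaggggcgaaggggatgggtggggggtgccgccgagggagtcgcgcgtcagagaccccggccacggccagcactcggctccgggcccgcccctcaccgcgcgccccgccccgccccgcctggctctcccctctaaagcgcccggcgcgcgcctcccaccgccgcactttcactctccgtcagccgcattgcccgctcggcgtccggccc
The single arm of PDZK1 began at position -68 relative to the start, or at -100 relative to another start in RefSeq. CTSD had 3 such arms, at -195, -43 and -18, and CXCL12 had 1 at -208. The forkhead motif TGTTTGC, on either strand, was in CTSD alone (from -29) and in 3.89% of all promoters, and TGTTTAC was in none of the 7 and in 3.42%. A GC box, GGGCGG on either strand, was in 6 of the 7, all but PDZK1, and in 45% of all promoters. The AP1 motif TGANTCA was in none of the 7 and in 7.71%. These matches are letters in a short window and say nothing of binding elsewhere.

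Totals per library ran from 21.0 to 36.7 M counts. The 8 genes all passed the filter on low counts in every line. Levels are given as CPM, the count of a gene per 1e6 counts of its library after scaling. Transcripts of the targeted genes were lower after each siRNA than in siNT_E2. ESR1 averaged 65.9 CPM in siER_E2 against 573 CPM in siNT_E2 in MM134, 21.5 against 275 CPM in MM330 and 206 against 413 CPM in HCC1428. FOXA1 averaged 120 CPM in siFOXA1_E2 against 471 CPM in siNT_E2 in MM134, 134 against 486 CPM in MM330 and 86.6 against 271 CPM in HCC1428. MDC1 averaged 42.7 CPM in siMDC1_E2 against 186 CPM in siNT_E2 in MM134, 39.8 against 195 CPM in MM330 and 43.9 against 168 CPM in HCC1428. ESR1 itself was also lower after the other siRNAs, at 117 CPM in siFOXA1_E2 and 129 CPM in siMDC1_E2 in MM134, 201 and 142 CPM in MM330, and 371 and 380 CPM in HCC1428. MDC1 was lower too in siER_E2 and siFOXA1_E2, at 121 and 146 CPM in MM134 and 98.8 and 119 CPM in MM330. In HCC1428 it had 74.5 and 90.2 CPM in these groups. Its siNT level was 186, 138 and 63.9 CPM in MM134, MM330 and HCC1428. FOXA1 was higher in siER_E2 than in siNT_E2, at 582, 553 and 419 CPM in the same order of lines. Without E2, in siNT, FOXA1 had 533, 658 and 457 CPM. What these shifts contribute to the results was not tested. All 12 luminal markers were detected in every group. XBP1, among them, is also on the list of other estrogen-induced genes used below. In 11 of the 45 libraries, processed pseudogenes took 0.337 to 0.494% of counts, against 0.123 to 0.158% in the other 34. Those 11 were spread over 9 of the 15 groups, and of the 96 values of these genes in the 12 comparisons of main interest, 3 lost their call without them. Among these was CXCL12 after siER in HCC1428, where only 1 siER_E2 library was left.

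The 8 genes stood at very different levels, here as mean CPM per kilobase of merged exons (SD, n = 3). In siNT_E2 of MM134, CTSD had 141 ± 2.0, ELOVL2 63.9 ± 1.4, SIAH2 62.2 ± 0.29, RET 59.4 ± 1.1, GREB1 46.1 ± 0.41, CELSR2 30.0 ± 0.20, PDZK1 26.6 ± 1.6 and CXCL12 10.9 ± 0.15. ELOVL2 and SIAH2, neighbours in that order, differed by little more than the SD of ELOVL2. The siNT_E2 cells of MM330 had CTSD at 163 ± 0.23, SIAH2 at 147 ± 6.4, GREB1 at 125 ± 2.1, ELOVL2 at 42.6 ± 1.5, CELSR2 at 28.4 ± 1.2, RET at 7.83 ± 0.37, PDZK1 at 6.99 ± 0.54 and CXCL12 at 0.194 ± 0.0051. CXCL12 was near 0 there, and RET and PDZK1 overlapped within 1 SD of their means. HCC1428 had CTSD at 162 ± 5.9, GREB1 at 113 ± 3.7, CELSR2 at 63.9 ± 2.5, RET at 63.6 ± 2.5, PDZK1 at 61.9 ± 0.46, SIAH2 at 60.0 ± 1.1, ELOVL2 at 33.0 ± 2.3 and CXCL12 at 0.107 ± 0.019. CELSR2, RET and PDZK1 overlapped there within 1 SD of their means. CTSD was the highest of the 8 in all 3 lines.

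**Figure D1:**
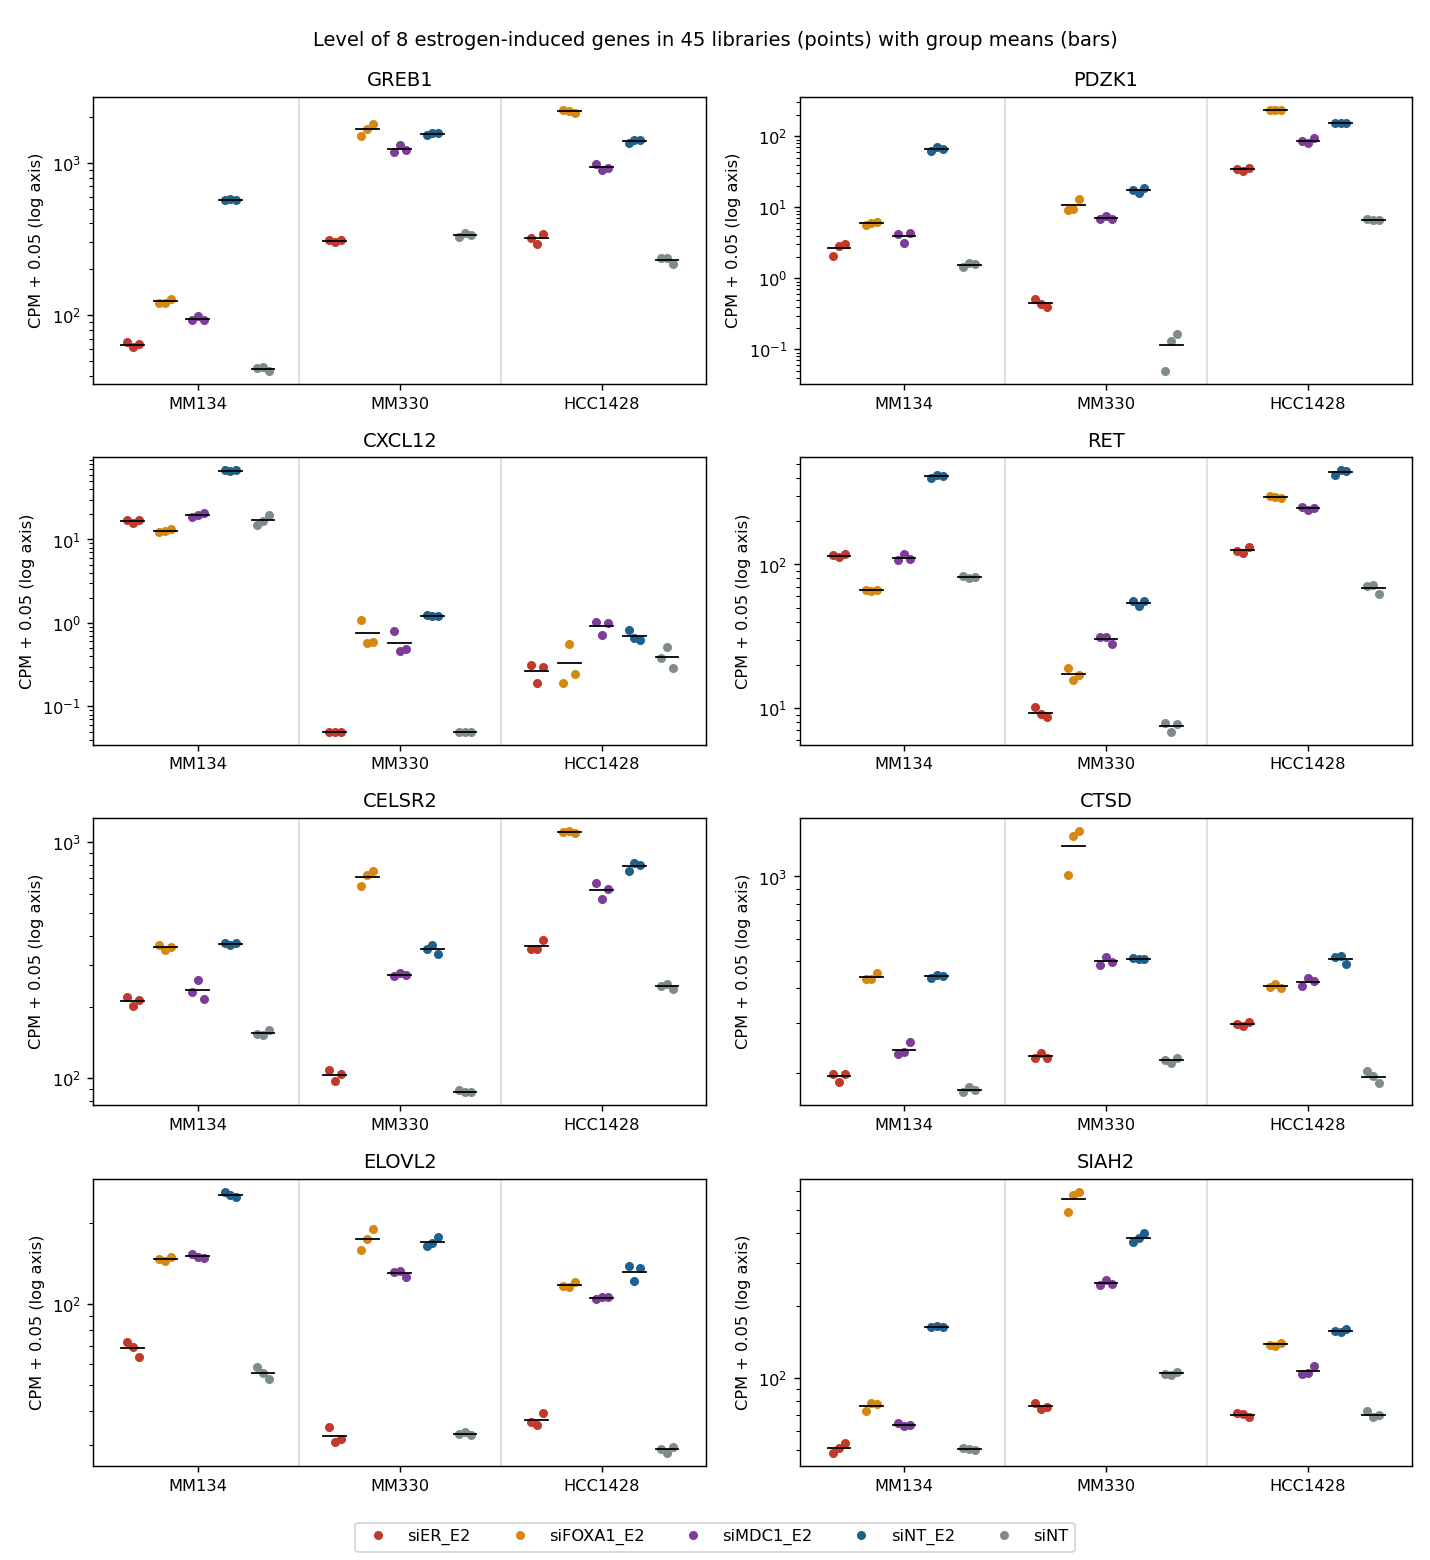
Level of each gene in the 45 libraries, as CPM plus 0.05 on a log axis, by line and group. Points are libraries and bars are group means. In all 3 lines the siNT_E2 points of each gene lie above every siNT point of the same line, although CXCL12 in HCC1428 was not called. The share of all genes that separate in this way was not computed.

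E2 raised all 8 genes in both lobular lines and 7 of 8 in HCC1428. An adjusted p below 0.05 in edgeR's quasi-likelihood test, adjusted over all genes by Benjamini-Hochberg, is a call here. Of all genes tested, 27.2% were called higher in MM134, 13.7% in MM330 and 29.1% in HCC1428. The gene without a call was CXCL12 in HCC1428. Whether groups overlap is given below as a description of single genes, since the share over all genes was not computed. In bulk RNA, fewer cells with a transcript and less of it per cell cannot be told apart. In each line PDZK1 had the largest fold change among the genes with counts in every group, and CTSD, CELSR2 and SIAH2 had the 3 smallest among those called. In 2 of the lines the summed luminal markers were higher with E2 too, at 13400 to 13600 CPM in siNT_E2 against 8680 to 9070 CPM in siNT in MM134 and 13700 to 14500 against 10800 to 11400 CPM in HCC1428, while the ranges met in MM330, at 11000 to 11500 against 10500 to 11000 CPM. Mitochondrial transcripts took 11.67, 11.81 and 14.33% of counts in siNT_E2 of HCC1428 against 15.96 to 18.69% in siNT, and those 3 libraries, against which each knockdown of that line is set, were below the other 12 of the line. The share was 8.64 to 9.18% against 9.66 to 10.03% in MM134, and the groups overlapped in MM330. The part of these shifts in the results was not tested.

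GREB1, the receptor cofactor, had 566, 576 and 568 CPM in the siNT_E2 libraries of MM134, against 45.2, 45.5 and 43.1 CPM in siNT. Its levels in MM330 were 1520, 1570 and 1560 CPM in siNT_E2 against 326, 344 and 337 CPM in siNT. HCC1428 libraries held 1340, 1420 and 1410 CPM in siNT_E2 and 238, 236 and 218 CPM in siNT. No siNT_E2 library of any line overlapped its siNT libraries, and the siNT level of MM134 was below that of both other lines. GREB1 rose 12.8-fold in MM134 (log2 3.67 ± 0.04 SE, adjusted p = 1.2e-24), 4.61-fold in MM330 (2.21 ± 0.06, adjusted p = 8e-14) and 6.03-fold in HCC1428 (2.59 ± 0.05, adjusted p = 5.8e-18).

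PDZK1, the transporter scaffold, had 62.7, 70.4 and 65.2 CPM in siNT_E2 of MM134, against 1.40, 1.60 and 1.55 CPM in siNT. MM330 libraries held 17.3, 16.0 and 18.7 CPM in siNT_E2 against 0, 0.0833 and 0.116 CPM in siNT. In HCC1428 it stood at 153, 155 and 153 CPM in siNT_E2 and at 6.76, 6.50 and 6.66 CPM in siNT. Without E2 the transcript was close to 0 in MM330 and highest in HCC1428, and no groups overlapped. It rose 43.2-fold in MM134 (log2 5.43 ± 0.12, adjusted p = 1.2e-19) and 23.1-fold in HCC1428 (4.53 ± 0.06, adjusted p = 8.3e-20). In MM330 the 1533 counts of siNT_E2 set against 6 counts of siNT give a ratio of 260, with a 95% interval for counting error of 119 to 708, and the call had an adjusted p of 5.1e-12. Its near-identical copy PDZK1P1 took at most 0.338% of the counts of both in 13 of the 15 groups. In MM330 the copy had 2 counts beside those 6 in siNT, and 3 beside 36 in siER_E2.

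CXCL12, the chemokine that binds CXCR4, was far higher in MM134 than in the other lines. It had 67.1, 65.5 and 67.0 CPM in siNT_E2 of MM134 against 14.9, 16.7 and 19.4 CPM in siNT, a 3.93-fold rise (log2 1.97 ± 0.07, adjusted p = 4.3e-16). MM330 had 1.21, 1.15 and 1.16 CPM in siNT_E2 and no count in any siNT library. Those 104 counts against 0 make siNT_E2 at least 35.2-fold higher, with the floor of siNT set at 3 counts over the group, and the call had an adjusted p of 1.2e-05. HCC1428 held 0.783, 0.603 and 0.567 CPM in siNT_E2 against 0.333, 0.462 and 0.235 CPM in siNT, 61 counts against 30. Although those groups did not overlap, the log2 difference of 0.92 ± 0.42 missed the threshold (adjusted p = 0.073). Fibroblasts are a known source of CXCL12, and 7 of the 8 fibroblast markers were at or below 0.706 CPM in every library. The eighth, COL1A1, reached 128 CPM in MM134, 36.3 CPM in MM330 and 79.4 CPM in HCC1428. The summed list ranged from 101 to 109 CPM in siNT_E2 against 125 to 128 CPM in siNT in MM134, from 27.5 to 28.4 against 25.5 to 26.7 CPM in MM330, and from 77.7 to 79.9 against 43.1 to 44.2 CPM in HCC1428, with COL3A1 at 0 throughout.

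RET, the receptor tyrosine kinase, had 402, 417 and 412 CPM in siNT_E2 of MM134 against 83.7, 80.0 and 82.4 CPM in siNT. MM330 showed 55.9, 51.2 and 55.3 CPM in siNT_E2 against 7.87, 6.83 and 7.77 CPM in siNT. In HCC1428 the values were 419, 451 and 447 CPM in siNT_E2 against 70.9, 71.5 and 62.1 CPM in siNT. All siNT_E2 libraries lay above all siNT libraries of their line, and MM330 stood lowest in both groups. RET rose 5-fold in MM134 (log2 2.32 ± 0.04, adjusted p = 4.6e-22), 7.25-fold in MM330 (2.86 ± 0.09, adjusted p = 3.2e-13) and 6.45-fold in HCC1428 (2.69 ± 0.05, adjusted p = 3.9e-18). CELSR2, the atypical cadherin, had 371, 367 and 372 CPM in siNT_E2 of MM134 against 153, 152 and 160 CPM in siNT. MM330 held 353, 365 and 336 against 88.4, 86.8 and 87.2 CPM, and HCC1428 held 754, 814 and 799 against 244, 251 and 237 CPM. Here too no libraries overlapped, and CELSR2 rose 2.39-fold, 4.02-fold and 3.23-fold in MM134, MM330 and HCC1428, with log2 changes of 1.26 ± 0.05, 2.01 ± 0.05 and 1.69 ± 0.05 and the largest adjusted p at 8e-14.

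Of the 3 genes for enzymes, CTSD and SIAH2 rose by smaller folds than ELOVL2 in every line. CTSD, the lysosomal protease, had 433, 445 and 443 CPM in siNT_E2 of MM134 against 170, 178 and 173 CPM in siNT. Its values were 510, 509 and 509 against 221, 216 and 226 CPM in MM330, and 516, 520 and 486 against 202, 194 and 183 CPM in HCC1428. No CTSD groups overlapped within a line, and its rises were 2.53-fold, 2.31-fold and 2.63-fold (log2 1.34 ± 0.04, 1.21 ± 0.09 and 1.39 ± 0.04, largest adjusted p = 2.4e-08). CTSD shares 41.7% of its exon bases with the gene AC068580.4 on the same strand and 15.8% with the antisense gene AC068580.3. These had 1828 and 2353 counts over all libraries against 529728 for CTSD. How reads in shared bases were counted is not known, so such counts cannot show what an overlap did to a gene's level. ELOVL2, the elongase, had 261, 255 and 250 CPM in siNT_E2 of MM134 against 58.4, 55.4 and 52.7 CPM in siNT. MM330 had 164, 169 and 177 against 32.9, 33.5 and 32.5 CPM, and HCC1428 had 138, 122 and 136 against 28.9, 27.9 and 29.5 CPM. Its rises were 4.60-fold, 5.16-fold and 4.59-fold (log2 2.20 ± 0.04, 2.37 ± 0.06 and 2.20 ± 0.05, largest adjusted p = 9.7e-14). SIAH2, the ubiquitin ligase, had 162, 164 and 163 CPM in siNT_E2 of MM134 against 50.7, 50.2 and 50.1 CPM in siNT, 367, 383 and 401 against 104, 103 and 106 CPM in MM330, and 156, 155 and 160 against 72.7, 68.4 and 69.6 CPM in HCC1428. It rose 3.23-fold, 3.68-fold and 2.24-fold (log2 1.69 ± 0.04, 1.88 ± 0.06 and 1.16 ± 0.04, largest adjusted p = 5.3e-13), and its antisense gene SIAH2-AS1, which shares 4.05% of its exon bases, had 736 counts against 200721.

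**Figure D2:**
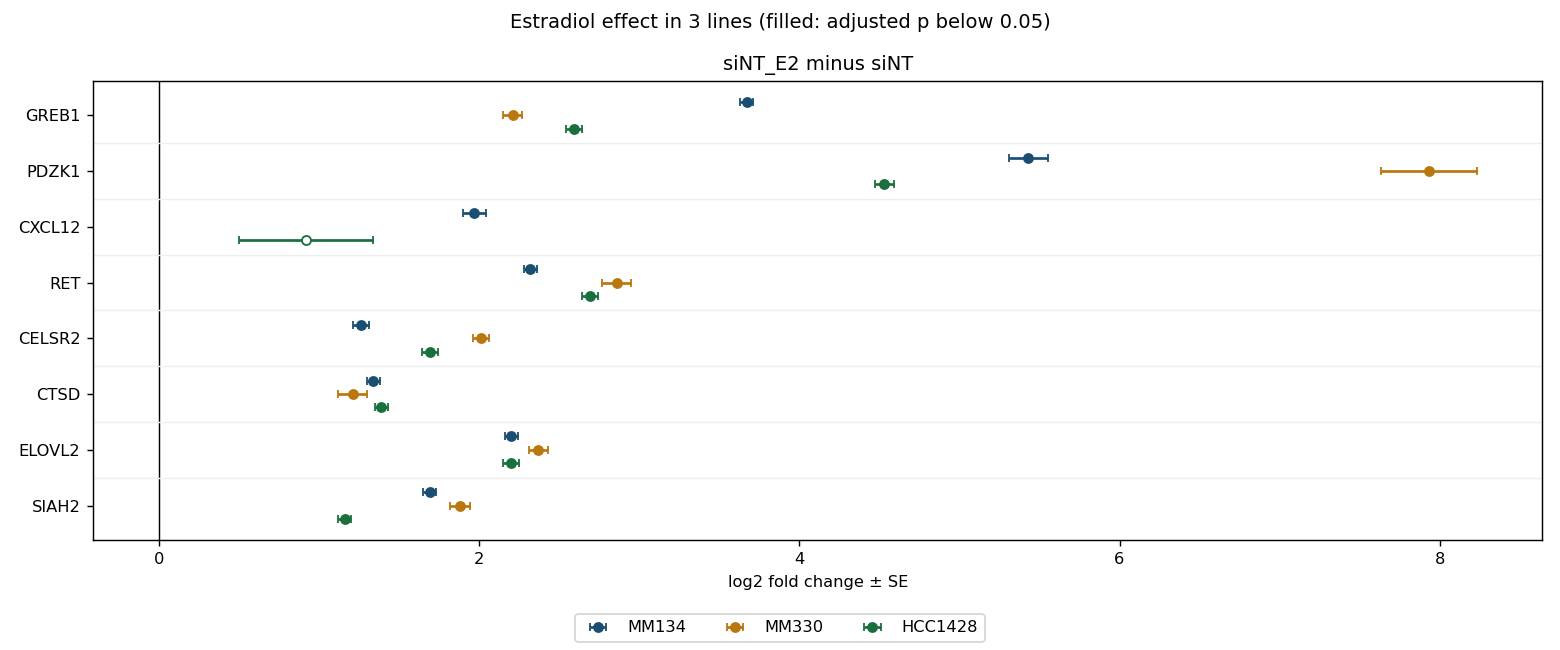
Log2 fold change of siNT_E2 over siNT with its SE for each gene and line, filled where the adjusted p was below 0.05. CXCL12 in MM330 is not drawn because siNT had no count, CXCL12 in HCC1428 is the open point, and PDZK1 has the largest change of the drawn genes in each line.

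The E2 response itself differed between lines for several of the 8 genes, tested as a difference of effects in 1 fit of all 45 libraries. Relative to HCC1428, the effect in MM134 was larger for 4 of the 8 genes and smaller for 2, against 12.2% and 14.3% of all genes, and the effect in MM330 was larger for 4 and smaller for 1, against 11.8% and 16.5%. Relative to MM330, the effect in MM134 was larger for 1 and smaller for 4, against 13.9% and 12.3%. The counts of 1 gene were below the shares over all genes. Both comparisons that involve MM330 count CXCL12, which had no count in siNT of MM330, and PDZK1, which had 6 counts there. GREB1 rose more in MM134 than in HCC1428 by log2 1.11 (adjusted p = 1.5e-14) and than in MM330 by 1.5 (adjusted p = 6.1e-18). SIAH2 rose more in both lobular lines than in HCC1428, by 0.56 in MM134 (adjusted p = 4e-07) and by 0.72 in MM330 (adjusted p = 8e-10). For CELSR2 the rise in HCC1428 lay between those of MM330 and MM134. With 1 ductal line, the origin of a line cannot be told apart from the line itself. In ELOVL2 and CTSD none of the 3 differences passed the threshold. ESR1 averaged 344, 289 and 555 CPM in siNT and 573, 275 and 413 CPM in siNT_E2 of MM134, MM330 and HCC1428. Its log2 change with E2 was 0.74, -0.07 (not called) and -0.42 in the same order. The part of the ESR1 level in these differences was not tested.

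With the receptor gene knocked down, all 8 genes fell in all 3 lines relative to siNT_E2. Of all genes, 27.9% were called lower in MM134, 17.4% in MM330 and 28.7% in HCC1428. The siER_E2 libraries lay below the siNT_E2 libraries for each gene and line, a description for which the share over all genes was not computed. The summed luminal markers were lower as well, at 9050 to 9400 CPM in siER_E2 against 13400 to 13600 CPM in siNT_E2 in MM134, 9050 to 9320 against 11000 to 11500 CPM in MM330 and 10000 to 10300 against 13700 to 14500 CPM in HCC1428. The mitochondrial share in HCC1428 was 15.95 to 17.21% in siER_E2 against 11.67 to 14.33% in siNT_E2, and the part of either in the falls was not tested. GREB1 had 66.2, 61.6 and 64.3 CPM in siER_E2 of MM134, 311, 300 and 313 CPM in siER_E2 of MM330 and 319, 295 and 342 CPM in siER_E2 of HCC1428. Set against the siNT_E2 values above, it fell 8.90-fold, 5.03-fold and 4.37-fold (log2 -3.15 ± 0.04, -2.33 ± 0.06 and -2.13 ± 0.05, largest adjusted p = 2.2e-14). PDZK1 had 2.00, 2.80 and 2.97 CPM in MM134, 0.464, 0.393 and 0.345 CPM in MM330 and 34.2, 32.6 and 35.4 CPM in HCC1428. It fell 25.5-fold, 43.0-fold and 4.50-fold, so HCC1428 kept far more of this transcript than the lobular lines did. ESR1 itself fell by 1.00 on the log2 scale in HCC1428, by 3.12 in MM134 and by 3.68 in MM330.

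RET had 116, 112 and 118 CPM in siER_E2 of MM134, 10.1, 9.08 and 8.62 CPM in MM330 and 125, 120 and 133 CPM in HCC1428, which put it 3.55-fold, 5.85-fold and 3.49-fold below siNT_E2. CXCL12 had 17.1, 15.5 and 17.3 CPM in siER_E2 of MM134, 4-fold below siNT_E2 (adjusted p = 3.2e-16). All 3 siER_E2 libraries of MM330 had no CXCL12 count, which is at least 35.4-fold lower than siNT_E2, again with the floor at 3 counts over the group (adjusted p = 9.1e-06). In HCC1428 the 20 counts of CXCL12 in siER_E2 against 61 in siNT_E2 gave a log2 change of -1.57 ± 0.45 (adjusted p = 0.0062). It was -1.10 without the 11 libraries with more pseudogene counts, which left 1 siER_E2 library of HCC1428. The other 4 genes fell by 0.76 (CTSD in HCC1428) to 2.39 (ELOVL2 in MM330) on the log2 scale. CELSR2 averaged 212 against 370 CPM in MM134, 103 against 351 CPM in MM330 and 362 against 789 CPM in HCC1428. ELOVL2 averaged 68.3 against 255, 32.4 against 170 and 37.1 against 132 CPM in the same order of lines.

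Relative to siNT, without E2, siER_E2 cells still held more of many of these transcripts. In MM134 6 of the 8 genes were called higher than in siNT, against 17.2% of all genes, and CXCL12 and SIAH2 were not called. The same number was called higher in HCC1428, against 11.7% of all genes, again without CXCL12 and SIAH2. In MM330 only CELSR2, PDZK1 and RET were called higher, against 8.66% of all genes, and SIAH2 was lower (log2 -0.46 ± 0.06, adjusted p = 3.5e-05), against 11.5% of all genes. The largest such remainder outside the few counts of PDZK1 in MM330 was PDZK1 in HCC1428, at 34.1 ± 1.4 CPM in siER_E2 and 6.64 ± 0.13 CPM in siNT (SD, n = 3), a log2 difference of 2.36 ± 0.06. The RET call in MM330 (log2 0.31 ± 0.09, adjusted p = 0.024) was lost without replicate 1 of siER_E2 (0.24, adjusted p = 0.11), without replicate 2 of siER_E2 (0.32, adjusted p = 0.05) and without replicate 2 of siNT (0.24, adjusted p = 0.14). The PDZK1 call there was lost with limma-voom (2.72, adjusted p = 0.068) and the CELSR2 call without the libraries with more pseudogene counts (0.22, adjusted p = 0.063).

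After FOXA1 knockdown the 8 genes fell or were not called in MM134, and were called in both directions in MM330 and HCC1428. In MM134 6 of the 8 fell and none rose, against 28.5% of all genes called lower and 27.9% called higher. In MM330 PDZK1 and RET fell and CELSR2, CTSD and SIAH2 rose, against 24.6% of all genes called lower and 24.4% called higher. In HCC1428 GREB1, PDZK1 and CELSR2 rose and the other 5 fell, against 24.1% called higher and 29.5% called lower. The counts in MM330, and that of rises in HCC1428, were near these shares and are read here gene by gene only. RET was the only one of the 8 that was called lower in all 3 lines. The summed luminal markers moved as well, at 18100 to 18800 CPM in siFOXA1_E2 against 13400 to 13600 CPM in siNT_E2 in MM134, 19200 to 21200 against 11000 to 11500 CPM in MM330 and 15900 to 16400 against 13700 to 14500 CPM in HCC1428. In HCC1428 the mitochondrial share of counts was 16.96 to 17.85% in siFOXA1_E2 against 11.67 to 14.33% in siNT_E2. The part of these values, and of the lower ESR1 levels given above, in the results was not tested.

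GREB1 had 121, 120 and 128 CPM in siFOXA1_E2 of MM134, all far below the siNT_E2 libraries, and fell 4.62-fold (log2 -2.21 ± 0.04, adjusted p = 1.1e-21). In MM330 its 1500, 1660 and 1810 CPM overlapped the siNT_E2 range, with a log2 change of 0.10 ± 0.05 that missed the threshold (adjusted p = 0.14). That value became 0.16 with an adjusted p of 0.005 without replicate 1 of siFOXA1_E2. In HCC1428 its 2230, 2200 and 2130 CPM lay above every siNT_E2 library, a 1.57-fold rise (log2 0.65 ± 0.05, adjusted p = 1.2e-09). PDZK1 had 5.54, 6.01 and 6.13 CPM in siFOXA1_E2 of MM134 and fell 11.2-fold (log2 -3.48 ± 0.10, adjusted p = 5e-18). Its 9.22, 9.39 and 13.2 CPM in MM330 were below siNT_E2 (log2 -0.70 ± 0.17, adjusted p = 0.0022), and its 237, 237 and 235 CPM in HCC1428 were above (0.62 ± 0.04, adjusted p = 4.1e-10). GREB1 and PDZK1 thus had the same direction in MM134 and in HCC1428.

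RET had 66.3, 65.1 and 66.6 CPM in siFOXA1_E2 of MM134 and fell 6.21-fold (log2 -2.64 ± 0.04, adjusted p = 2.1e-22). Its 18.9, 15.7 and 17.0 CPM in MM330 were 3.15-fold below siNT_E2 (-1.66 ± 0.08, adjusted p = 6.6e-11), and its 300, 293 and 288 CPM in HCC1428 were 1.5-fold below (-0.58 ± 0.05, adjusted p = 4.1e-09). CELSR2, the other surface protein, differed from this. It had 364, 349 and 358 CPM in siFOXA1_E2 of MM134, just below siNT_E2 (log2 -0.05 ± 0.05, adjusted p = 0.34), 653, 723 and 750 CPM in MM330, a 2.02-fold rise (adjusted p = 6.7e-11), and 1100, 1110 and 1090 CPM in HCC1428, a 1.40-fold rise (adjusted p = 1e-07). CXCL12 had 12.1, 12.6 and 13.2 CPM in MM134, 5.27-fold below siNT_E2, and 1.04, 0.533 and 0.545 CPM in MM330, where the log2 change of -0.75 ± 0.44 missed the threshold (adjusted p = 0.18). Without replicate 1 of siFOXA1_E2 the MM330 value became -1.12 with an adjusted p of 0.049, and with limma-voom it was -0.85 (adjusted p = 0.024). In HCC1428 CXCL12 had 0.140, 0.504 and 0.196 CPM, 23 counts against 61 in siNT_E2, and a log2 change of -1.21 ± 0.44 (adjusted p = 0.027). That call rested on single libraries. Without replicate 1 or 3 of siFOXA1_E2 or replicate 2 of siNT_E2 it became -0.88, -1.02 or -1.05 with adjusted p-values of 0.13, 0.099 and 0.095, and without replicate 2 of siFOXA1_E2 it became -1.94 (adjusted p = 0.0026).

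CTSD showed the largest rise of the 8 after FOXA1 knockdown, in MM330. Its siFOXA1_E2 libraries had 1010, 1390 and 1450 CPM there, and the lowest of these was still well above every siNT_E2 library, a 2.52-fold rise (log2 1.34 ± 0.09, adjusted p = 2.5e-09). In MM134 its 432, 432 and 454 CPM overlapped siNT_E2 (log2 0.00 ± 0.04, adjusted p = 0.94), and in HCC1428 its 403, 414 and 401 CPM were 1.25-fold below (-0.32 ± 0.04, adjusted p = 8.2e-07). SIAH2 also rose in MM330 alone, with 72.6, 78.1 and 78.0 CPM in MM134 (log2 -1.09 ± 0.04, adjusted p = 7.3e-17), 492, 580 and 595 CPM in MM330 (0.53 ± 0.06, adjusted p = 5.9e-07) and 137, 136 and 140 CPM in HCC1428 (-0.19 ± 0.04, adjusted p = 0.00017). ELOVL2 fell in MM134, to 147, 145 and 149 CPM (log2 -0.80 ± 0.04, adjusted p = 7.3e-14). Its 159, 175 and 190 CPM in MM330 overlapped siNT_E2 (0.04 ± 0.06, adjusted p = 0.59), and in HCC1428 117, 116 and 121 CPM gave -0.16 ± 0.05 (adjusted p = 0.0048), which became -0.11 with an adjusted p of 0.073 without replicate 4 of siNT_E2.

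**Figure D3:**
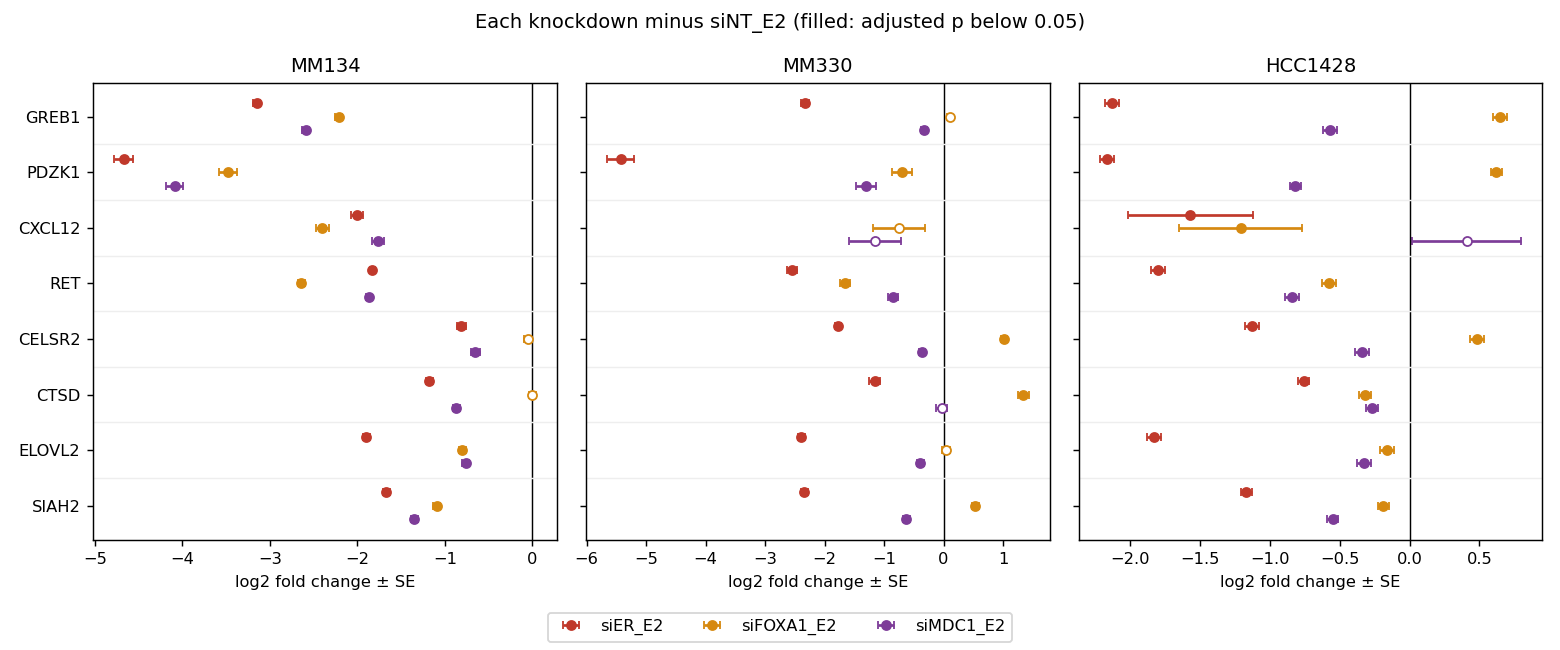
Log2 fold change of siER_E2, siFOXA1_E2 and siMDC1_E2 over siNT_E2 with its SE, by gene and line, filled where the adjusted p was below 0.05, with 3 panels that have their own x scales. The siER_E2 points all lie below 0, while the siFOXA1_E2 points lie at or below 0 in MM134 and on both sides of 0 in MM330 and HCC1428. CXCL12 after siER in MM330 is not drawn because it had no count.

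The MDC1 knockdown lowered most of the 8 genes relative to siNT_E2, and none was called higher. All 8 fell in MM134, against 25% of all genes called lower, 6 fell in MM330, against 10.4%, and 7 fell in HCC1428, against 15.9%. CTSD and CXCL12 were not called in MM330, and CXCL12 was not called in HCC1428. The falls were 3.39-fold to 17.0-fold for GREB1, PDZK1, CXCL12 and RET in MM134. In the other lines no called fall exceeded 1.80-fold but that of PDZK1 in MM330, at 2.45-fold. ESR1 levels in siMDC1_E2, given above, were also lowest relative to siNT_E2 in MM134. The luminal sum was 11300 to 11500 CPM in siMDC1_E2 against 13400 to 13600 CPM in siNT_E2 in MM134 and 9080 to 9410 against 11000 to 11500 CPM in MM330, and the mitochondrial share in HCC1428 was 14.95 to 16.23% against 11.67 to 14.33%. The part of these values in the result was not tested. The 3 knockdown comparisons of a line share its siNT_E2 libraries.

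GREB1 had 92.4, 98.9 and 93.2 CPM in siMDC1_E2 of MM134, a 6.01-fold fall (log2 -2.59 ± 0.04, adjusted p = 3.6e-22). It had 1180, 1300 and 1210 CPM in MM330 (-0.33 ± 0.05, adjusted p = 0.00022) and 980, 894 and 929 CPM in HCC1428 (-0.57 ± 0.05, adjusted p = 5.5e-08), in each case below every siNT_E2 library. PDZK1 had 4.14, 3.13 and 4.35 CPM in MM134, a 17.0-fold fall (-4.09 ± 0.10, adjusted p = 2.2e-18). It stood at 6.74, 7.54 and 6.90 CPM in MM330, 2.45-fold below siNT_E2, and at 84.9, 81.4 and 94.3 CPM in HCC1428, 1.77-fold below. PDZK1 had the largest called fall of the 8 in both lobular lines. RET had 108, 118 and 109 CPM in MM134, 31.1, 31.3 and 27.7 CPM in MM330 and 251, 241 and 246 CPM in HCC1428, which were 3.67-fold, 1.80-fold and 1.79-fold below siNT_E2 (largest adjusted p = 6e-07). CXCL12 fell 3.39-fold in MM134, to 18.4, 19.8 and 20.6 CPM (adjusted p = 2.6e-15). In MM330 its 0.749, 0.413 and 0.432 CPM gave log2 -1.15 ± 0.44 (adjusted p = 0.092), which was called with limma-voom (adjusted p = 0.012) and with only the compared libraries fitted (adjusted p = 0.016), and in HCC1428 its 0.988, 0.669 and 0.959 CPM overlapped siNT_E2 (0.41 ± 0.39, adjusted p = 0.47).

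In MM134 the remaining 4 genes fell less than these, which did not hold in the other lines. CELSR2 had 232, 260 and 215 CPM in siMDC1_E2 of MM134 (log2 -0.65 ± 0.05, adjusted p = 8.2e-11), 271, 278 and 273 CPM in MM330 (-0.36 ± 0.05, adjusted p = 5e-05) and 670, 572 and 634 CPM in HCC1428 (-0.34 ± 0.05, adjusted p = 3.8e-05). CTSD had 232, 236 and 256 CPM in MM134 (-0.87 ± 0.04, adjusted p = 1.2e-14), 484, 518 and 495 CPM in MM330, which overlapped siNT_E2 (-0.03 ± 0.09, adjusted p = 0.89), and 408, 434 and 423 CPM in HCC1428 (-0.27 ± 0.04, adjusted p = 3e-05). Both genes moved most in MM134. ELOVL2 fell by 0.76, 0.39 and 0.33 on the log2 scale in MM134, MM330 and HCC1428, to means of 151, 130 and 105 CPM. SIAH2 fell by 1.35, 0.63 and 0.55, to means of 63.7, 248 and 107 CPM.

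How much of the E2 rise each knockdown left can be read from the mean CPM, with siNT set at 0% and siNT_E2 at 100%. With ESR1 knocked down, the share left was 0.553% for SIAH2 to 26.3% for CELSR2 among the 7 genes of MM134 other than CXCL12 (-0.695%), and -10.1% to 5.92% in MM330. In HCC1428 it was -0.182% for SIAH2 to 33.5% for CTSD, leaving out CXCL12, whose E2 rise was not called. With FOXA1 knocked down the spread was far wider. RET kept -4.88% in MM134, 20.8% in MM330 and 60.7% in HCC1428, CTSD kept 99.6%, 369% and 67.9%, and GREB1 kept 15%, 109% and 169%. PDZK1 kept 6.78%, 61.0% and 156%, CELSR2 93.8%, 236% and 157%, ELOVL2 45.7%, 103% and 86.4% and SIAH2 23.1%, 161% and 77.5%. With MDC1 knocked down, the range over the 8 genes was 3.65 to 47.6% in MM134 and 40.5 to 96.3% in MM330, and in HCC1428 it was 42.5% for SIAH2 to 74.1% for ELOVL2 without CXCL12. GREB1 kept 9.56%, 73.8% and 60.6% and RET 9.10%, 48.3% and 47.9% in MM134, MM330 and HCC1428. All these shares use the same siNT_E2 and siNT libraries of a line and are given as descriptions.

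**Figure D4:**
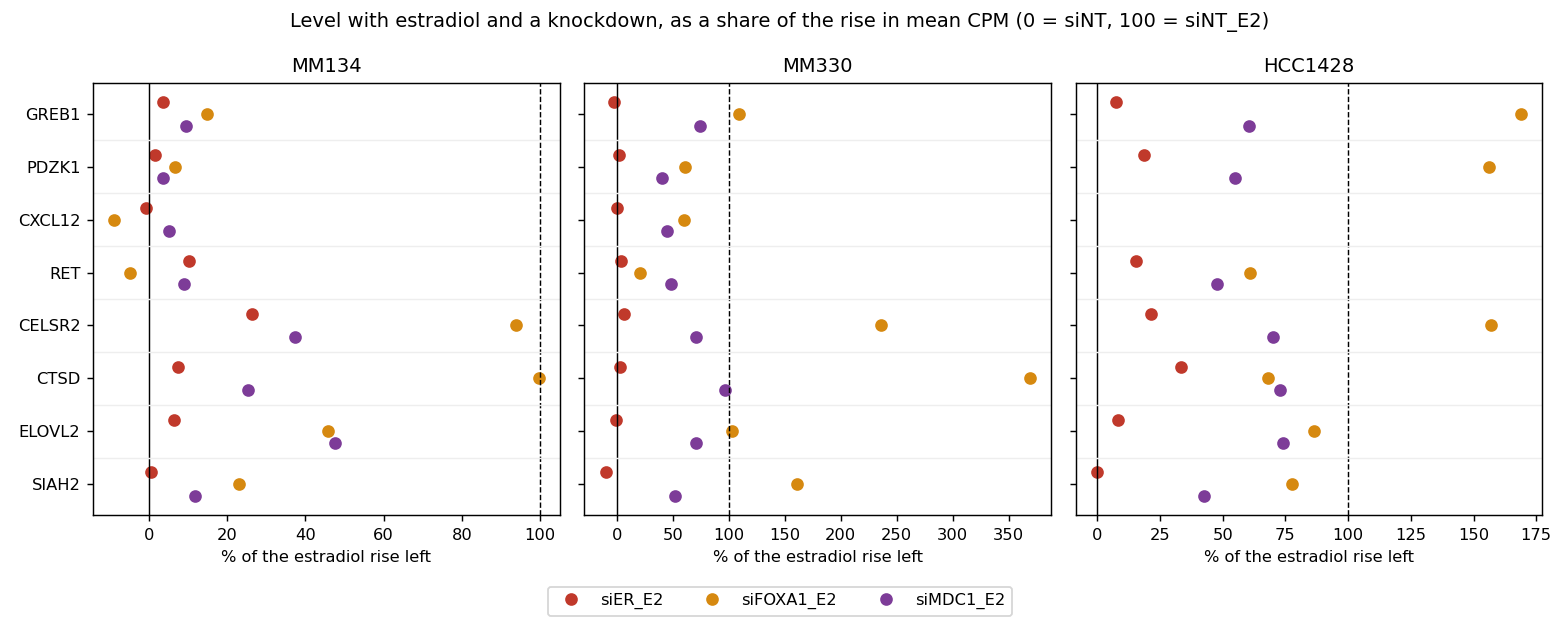
Mean CPM of each gene in siER_E2, siFOXA1_E2 and siMDC1_E2 as a percent of the rise between siNT (0, solid line) and siNT_E2 (100, dashed line), by line, with x scales that differ between panels. The siER_E2 points of MM330 lie between -10.1% and 5.92%, those of the other lines reach 26.3% for CELSR2 in MM134 and 33.5% for CTSD in HCC1428, and the siFOXA1_E2 points reach 369% for CTSD in MM330; CXCL12 in HCC1428 is not drawn because its E2 rise was not called.

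Set directly against siNT, all 8 genes were higher in siMDC1_E2 in each line, against 26% of all genes in MM134, 17.9% in MM330 and 26.2% in HCC1428. The smallest of these differences was CXCL12 in MM134, 19.6 ± 1.1 against 17.0 ± 2.3 CPM (SD, n = 3 each), whose groups overlapped (log2 0.21 ± 0.07, adjusted p = 0.023). That call was lost without replicate 1 of siNT (0.13, adjusted p = 0.16), replicate 2 of siNT (0.20, adjusted p = 0.072), or replicates 2 or 3 of siMDC1_E2 (0.20 and 0.19, adjusted p = 0.06 and 0.08). In HCC1428 the CXCL12 difference of 1.34 became 1.13 with an adjusted p of 0.051 without replicate 3 of siNT. In siFOXA1_E2, 6 of the 8 were higher than in siNT in MM134 and CXCL12 and RET were lower (log2 -0.42 ± 0.08 and -0.31 ± 0.04), against 28.9% of all genes called higher and 27.9% called lower. All 8 were higher in MM330, against 23.1%, and 7 in HCC1428, against 25.1%.

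The knockdowns could also be compared with each other without siNT_E2. With FOXA1 rather than ESR1 knocked down, 6 of the 8 genes were higher and CXCL12 and RET were lower in MM134, against 25.8% and 25.4% of all genes. All 8 were higher in MM330, against 23.1%, and 7 in HCC1428, against 21.3%. With MDC1 rather than ESR1 knocked down, 7 genes were higher in MM134, against 24.1% of all genes, and RET was not called, at 112 ± 5.6 against 116 ± 3.0 CPM (log2 -0.05 ± 0.04, adjusted p = 0.31). All 8 were higher in MM330, against 16.9%, and in HCC1428, against 23.7%. The CELSR2 and CXCL12 calls of MM134 in this comparison were small (0.16 and 0.24) and were lost without replicate 2 of siER_E2 (0.13 and 0.19, adjusted p = 0.05 and 0.064), and the CELSR2 call also without replicate 2 of siMDC1_E2 (0.08, adjusted p = 0.1). With MDC1 rather than FOXA1 knocked down, CXCL12 and RET were higher and 5 genes lower in MM134, against 25.3% and 24.4% of all genes. RET was higher and 6 genes lower in MM330, against 24.3% and 24.5%, and CXCL12 was higher and 6 genes lower in HCC1428, against 25.6% and 19.7%. The counts of 1 or 2 genes in these comparisons were no larger than the shares over all genes. That CXCL12 difference of 1.62 ± 0.43 became 2.36 without replicate 2 of siFOXA1_E2. The PDZK1 call of MM330 in that comparison (-0.59 ± 0.17, adjusted p = 0.0087) became -0.39 with an adjusted p of 0.097 without replicate 3 of siFOXA1_E2.

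The effect of each knockdown differed between lines for many of the 8 genes, by the test of the difference itself. With siMDC1 the log2 change was lower in MM134 than in HCC1428 for all 8, by -0.31 (CELSR2) to -3.26 (PDZK1), against 7.69% of all genes, and lower in MM134 than in MM330 for 7, all but CXCL12, against 9.71%. Between MM330 and HCC1428 it was lower in MM330 for PDZK1 and CXCL12, against 6.28%, and higher for GREB1 (0.24, adjusted p = 0.033), against 7.48%. That GREB1 call was lost without any 1 of 6 libraries, for instance without replicate 2 of siMDC1_E2 of MM330 (0.19, adjusted p = 0.13). With siFOXA1 the change was lower in MM134 than in MM330 for all 8, by -0.85 (ELOVL2) to -2.82 (PDZK1), against 13.8%. It was lower in MM134 than in HCC1428 for 7, against 13.7%, and higher for CTSD (0.27, adjusted p = 0.042), against 16.8%, a call that was lost without any 1 of 9 libraries, for instance without replicate 1 of siNT_E2 of MM134 (0.27, adjusted p = 0.075). In MM330 relative to HCC1428 it was higher for CTSD, CELSR2 and SIAH2, against 11.8%, and lower for GREB1, PDZK1 and RET, against 10.4%. With siER it was lower in MM330 than in HCC1428 for all 8, against 12.3%, by -0.23 (GREB1) to -3.29 (PDZK1) among the 7 genes with counts in siER_E2. In MM134 relative to HCC1428 it was lower for 4 genes, with PDZK1 at -2.56, and higher for CELSR2, against 12.1% and 12.4%. In MM134 relative to MM330 it was higher for 5 genes and lower for GREB1, against 12.5% and 12.9%. Those 5 include CXCL12, which had no count in siER_E2 of MM330. Counts of a single gene in these comparisons were near or below the shares over all genes and are read gene by gene only. ESR1 itself fell more in MM330 than in HCC1428 after siER, by 2.71 (adjusted p = 2e-26), and more in MM134 than in HCC1428 after siMDC1, by 2.03 (adjusted p = 3.2e-23). The part of the receptor level in these differences was not tested.

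Other genes known to be induced by estrogen, a list of 50, gave the setting. In the E2 comparison 43 of the 47 tested were higher in MM134, 40 of 48 in MM330 and 42 of 49 in HCC1428, against 27.2%, 13.7% and 29.1% of all genes, with median log2 changes of 1.34, 1.20 and 0.74 against -0.03, 0.00 and -0.03 over all genes. The anterior gradient gene AGR2 was lower in all 3 lines (log2 -0.32, -0.32 and -1.49 in MM134, MM330 and HCC1428). DEGS2 was lower in MM134, CA12 and CYP1B1 in MM330, and ABHD2, SLC22A5 and STC2 in HCC1428. TFF1, the secreted trefoil peptide, rose by 4.63, 4.43 and 4.26 on the log2 scale. MYC rose by 2.69 in MM134 and 5.46 in MM330, with 0.02 in HCC1428 (adjusted p = 0.78), and AREG, a ligand of the EGF receptor, rose by 2.70, 1.43 and 0.67. The progesterone receptor gene PGR rose by 3.90 in MM330 and 0.74 in HCC1428 and was not tested in MM134.

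After siER 44 of 47, 42 of 48 and 43 of 49 of that list fell in MM134, MM330 and HCC1428, against 27.9%, 17.4% and 28.7% of all genes. After siFOXA1 31 fell and 8 rose in MM134, against 28.5% of all genes called lower and 27.9% called higher. In MM330 23 fell and 19 rose, against 24.6% and 24.4%, and in HCC1428 23 fell and 15 rose, against 29.5% and 24.1%. TFF1 and AREG fell after siFOXA1 in all 3 lines, with log2 changes of -3.63, -2.14 and -1.64 for TFF1 and -4.33, -2.98 and -1.54 for AREG. After siMDC1 38 fell and 6 rose in MM134, against 25% of all genes called lower and 25.4% called higher. In MM330 21 fell and 9 rose, against 10.4% in each direction, and in HCC1428 22 fell and 6 rose, against 15.9% and 13.2%, so the rises there were near the share over all genes. The median change after siMDC1 was -0.84, -0.12 and -0.19 in the 3 lines, against 0.00, 0.00 and -0.01 over all genes.

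Binding partners and relatives of the 8 genes, 38 of them with 31 tested per line, moved without a shared direction. After E2 14 rose and 7 fell in MM134, against 27.2% of all genes called higher and 27.2% called lower. In MM330 8 rose and 10 fell, against 13.7% and 12.6%, and in HCC1428 15 rose and 8 fell, against 29.1% and 25.7%. The falls in MM134 and HCC1428 were near the share over all genes. GFRA1, the co-receptor with which RET binds GDNF, averaged 15.3 ± 0.89 CPM in siNT_E2 against 1.45 ± 0.16 CPM in siNT in MM134, 3.00 ± 0.43 against 0.228 ± 0.065 CPM in MM330 and 1.55 ± 0.082 against 0.886 ± 0.28 CPM in HCC1428 (SD, n = 3 each). It rose with E2 in every line (log2 3.39, 3.67 and 0.80). After siFOXA1 GFRA1 fell in MM134 (-1.51 ± 0.11, adjusted p = 1.6e-10) and rose in MM330 (1.57 ± 0.18, adjusted p = 1.9e-06), where RET fell. ARTN, a ligand that signals through RET, averaged 32.0 ± 1.7 CPM in siNT_E2 and 9.54 ± 1.2 CPM in siNT of MM134 and rose there by 1.75 on the log2 scale. It rose by 4.38 in MM330, on 358 counts in siNT_E2 and 17 in siNT, and had -0.16 in HCC1428 (adjusted p = 0.57).

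ACKR3, which binds CXCL12 and clears it, fell with E2 in all 3 lines (log2 -1.58, -1.52 and -0.70). CXCR4, its signalling receptor, fell in MM134 and HCC1428 (-0.57 and -1.41) and had -0.62 in MM330 (adjusted p = 0.07). GREB1L, the paralog of GREB1, rose by 0.64, 0.68 and 0.93, far less than GREB1. ELOVL5, another elongase, rose by 0.38, 0.50 and 0.64. The desaturases that work with these elongases did not move alike, since FADS2 rose by 0.63 in MM134, fell by 0.95 in MM330 and rose by 1.41 in HCC1428, where FADS1 rose by 1.27. SIAH1, the paralog of SIAH2, was not called in any line (0.11, 0.23 and 0.03), and EGLN3, a prolyl hydroxylase, fell by 2.13, 2.40 and 0.90. CELSR1, a paralog of CELSR2, rose by 0.92, 0.86 and 0.71, and the PDZ scaffold gene SLC9A3R1 by 1.32, 0.93 and 0.88.

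Across the 15 group means, centred within each line, the 8 genes were more or less alike in their course. As Pearson's r of log2(CPM + 0.5), GREB1 and PDZK1 had 0.97, CTSD and CELSR2 0.94, and RET and CTSD 0.58, and the lowest value was 0.56 for CXCL12 and CELSR2. These points share their libraries and all carry the E2 effect, so the values are descriptions. CXCL12 was at or below 1.21 CPM in every library of MM330 and HCC1428, so the added 0.5 weighs on its r values. Of 8216 other protein-coding genes, the most alike to GREB1 were NOS1AP (0.975), C1orf226 (0.972) and RAPGEFL1 (0.965), and to PDZK1 RUNX1 (0.963), RAPGEFL1 (0.946) and TMEM120B (0.931). RET was nearest to ZNF703 (0.931), ARL3 (0.921) and SGK3 (0.912), and ZNF552 (0.934) and FMN1 (0.930) were among the nearest to CXCL12. CELSR1 was among the 3 nearest genes of CTSD (0.944), ELOVL2 (0.954) and CELSR2 (0.961). The others nearest to CTSD were TPD52L1 (0.941) and ABAT (0.940), to ELOVL2 HS6ST1 (0.960) and NT5DC3 (0.946), and to CELSR2 NT5DC3 (0.973) and DDAH2 (0.949). SIAH2 was nearest to HDAC11 (0.970), TPD52L1 (0.964) and RAB11FIP4 (0.958).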

How the data were processed

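The files hold raw counts per gene symbol, which the authors deposited as 1 table for 45 poly(A) RNA libraries with no normalization. Reads were aligned with STAR 2.6.0a to GRCh38, per the submitters' processing notes, which also name limma. The counting tool, annotation and strand setting are not given in the sources used here, so antisense partners could not be told apart. Of 57353 symbols, 56598 were in GENCODE release 29, which gave exon lengths and coordinates.

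Within each line, genes kept by filterByExpr (17744 in MM134, 17834 in MM330, 18286 in HCC1428) were scaled by TMM and fitted over all 15 libraries with edgeR 4.0.16 (R 4.3.3). Its quasi-likelihood test gave every adjusted p except those stated to be from limma-voom. Benjamini-Hochberg adjustment ran over all genes tested, with a threshold of 0.05. Differences between lines came from 1 fit of all 45 libraries (21447 genes). The CPM values were computed here from the deposited counts and the TMM-scaled totals of a line. Levels between lines rest on separate scalings. No p is adjusted over the 8 genes.

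The 8 genes, the gene lists and the tests were chosen with earlier results of these data known. Beyond the 8, the text names the siRNA targets, from the list of other estrogen targets TFF1, PGR, MYC, AREG and those against its direction, and from the list of partners the 4 largest called E2 changes per line among genes at 10 CPM or more in either group, plus GFRA1, GREB1L, CXCR4, ACKR3, ELOVL5 and SIAH1. The 3 genes most like each of the 8 were taken by Pearson's r among genes at 10 CPM or more in at least 1 group of every line. For CXCL12, 1 of the 3 is not reported here. Replicate numbers did not pair the libraries. Alternatives were other scaling, no filter, a replicate block, each library left out, DESeq2 1.42.0, limma-voom (limma 3.58.1), only the compared libraries, and only the libraries with fewer pseudogene counts. Only the E2 comparison of MM134 was run on simulated counts, with the same spread for every gene and far fewer changed genes. That tried the code and says nothing of error rates in the real data. Intervals and floors cover counting error only.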

Additional observations from a re-analysis of the deposited data

Results flagged for a closer look

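The effects below differed between lines by the test of the difference itself, edgeR's quasi-likelihood test on the interaction in the fit of all 45 libraries, with Benjamini-Hochberg adjustment over all genes. Values are differences of log2 fold changes, and the lines of a pair share no libraries. CXCL12 is left out wherever MM330 had no count in a group.

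For the E2 response (siNT_E2 minus siNT), the difference of MM134 minus HCC1428 was 1.11 for GREB1, 0.93 for PDZK1, 1.06 for CXCL12, -0.41 for CELSR2, -0.34 for RET and 0.56 for SIAH2, with adjusted p-values up to 0.02 (CXCL12). The difference of MM330 minus HCC1428 was -0.39 for GREB1, 3.41 for PDZK1, 0.31 for CELSR2 and 0.72 for SIAH2, with adjusted p-values up to 0.0026 (CELSR2). The difference of MM134 minus MM330 was 1.5 for GREB1, -2.48 for PDZK1, -0.72 for CELSR2 and -0.51 for RET, with adjusted p-values up to 0.00023 (PDZK1). The CXCL12 difference between MM134 and HCC1428 was lost without replicate 2 of siNT (0.81, adjusted p = 0.17) or replicate 4 of siNT_E2 (0.96, adjusted p = 0.059) of HCC1428. It was 0.73 without the libraries with more pseudogene counts, which left 1 siNT library of HCC1428.

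For the siER effect (siER_E2 minus siNT_E2), the difference of MM134 minus HCC1428 was -1.08 for GREB1, -2.56 for PDZK1, -0.48 for CTSD, 0.26 for CELSR2 and -0.57 for SIAH2, with adjusted p-values up to 0.011 (CELSR2). The difference of MM330 minus HCC1428 was -0.23 for GREB1, -3.29 for PDZK1, -0.42 for CTSD, -0.59 for ELOVL2, -0.67 for CELSR2, -0.78 for RET and -1.20 for SIAH2, with adjusted p-values up to 0.023 (GREB1). The difference of MM134 minus MM330 was -0.85 for GREB1, 0.47 for ELOVL2, 0.94 for CELSR2, 0.69 for RET and 0.64 for SIAH2, with adjusted p-values up to 4.5e-05 (ELOVL2). The GREB1 difference between MM330 and HCC1428 was lost without replicate 3 of siER_E2 of HCC1428 (-0.18, adjusted p = 0.1), replicate 2 of siNT_E2 of HCC1428 (-0.21, adjusted p = 0.06) or replicate 2 of siNT_E2 of MM330 (-0.21, adjusted p = 0.057).

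For the siFOXA1 effect (siFOXA1_E2 minus siNT_E2), the difference of MM134 minus HCC1428 was -2.90 for GREB1, -4.15 for PDZK1, -1.23 for CXCL12, 0.27 for CTSD, -0.68 for ELOVL2, -0.58 for CELSR2, -2.10 for RET and -0.94 for SIAH2, with adjusted p-values up to 0.042 (CTSD). The difference of MM330 minus HCC1428 was -0.58 for GREB1, -1.33 for PDZK1, 1.63 for CTSD, 0.50 for CELSR2, -1.11 for RET and 0.70 for SIAH2, with adjusted p-values up to 4e-06 (CELSR2). The difference of MM134 minus MM330 was -2.32 for GREB1, -2.82 for PDZK1, -1.62 for CXCL12, -1.36 for CTSD, -0.85 for ELOVL2, -1.08 for CELSR2, -0.99 for RET and -1.64 for SIAH2, with adjusted p-values up to 3e-05 (CXCL12). The CXCL12 difference between MM134 and HCC1428 became -0.48 (adjusted p = 0.59) without replicate 2 of siFOXA1_E2 of HCC1428, and the CTSD difference there was 0.24 to 0.28, with adjusted p-values of 0.056 to 0.098, in the 9 omissions that ended its call.

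For the siMDC1 effect (siMDC1_E2 minus siNT_E2), the difference of MM134 minus HCC1428 was -2.01 for GREB1, -3.26 for PDZK1, -2.16 for CXCL12, -0.60 for CTSD, -0.43 for ELOVL2, -0.31 for CELSR2, -1.03 for RET and -0.80 for SIAH2, with adjusted p-values up to 0.0033 (CELSR2). The difference of MM330 minus HCC1428 was 0.24 for GREB1, -0.48 for PDZK1 and -1.57 for CXCL12, with adjusted p-values up to 0.033 (GREB1). The difference of MM134 minus MM330 was -2.25 for GREB1, -2.79 for PDZK1, -0.83 for CTSD, -0.37 for ELOVL2, -0.29 for CELSR2, -1.02 for RET and -0.72 for SIAH2, with adjusted p-values up to 0.0073 (CELSR2). The GREB1 difference between MM330 and HCC1428 was 0.19 to 0.23 in the 6 omissions that ended its call.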

How the results depend on the processing

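Of 4841 values of the 8 genes under alternatives, 4768 kept their side of the threshold, 57 lost their call, 16 gained one and 0 reversed. Direction was compared only for results called in the main fit. RLE scaling changed no call. Calls changed for 27 of 336 results, 9 of them CXCL12, and for 6 of the 96 in the E2 and knockdown comparisons with siNT_E2.

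Using only the libraries with fewer pseudogene counts, hence fewer libraries, lowered the number of genes called in MM330 to 3092 (4690 with all libraries) for siNT_E2 against siNT, 2208 (3710) for siMDC1_E2 against siNT_E2, 1900 (3604) for siER_E2 against siNT and 3571 (5462) for siMDC1_E2 against siER_E2. It lowered that number in HCC1428 to 2176 (3875) for siER_E2 against siNT, and to 3595 (5428) for the siER difference of MM330 minus HCC1428. Of the 8 genes, 2 rather than 4 were then called for siER_E2 against siNT in MM330, as also with limma-voom, where the cause was not tested, and 1 rather than 3 for the siMDC1 difference of MM330 minus HCC1428.

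Leaving out 1 library moved no count of calls by more than 1.5 times. The median r of deviations between same-numbered libraries of different groups was 0.01, 0 and -0.01 in MM134, MM330 and HCC1428. It was 0, 0.01 and 0 for libraries with other numbers. Single pairs ran from -0.61 to 0.76 with the same number and from -0.73 to 0.77 with another. With the replicate block, the genes called were 0.8 to 1 times as many over 42 comparisons. The block ended the calls of CXCL12 (-1.29, adjusted p = 0.053) and ELOVL2 (-0.13, adjusted p = 0.054) after siFOXA1 in HCC1428 and of the CXCL12 difference in E2 response of MM134 minus HCC1428 (0.98, adjusted p = 0.059), and PDZK1 gained one for the siER difference of MM134 minus MM330 (0.73, adjusted p = 0.047). Low counts limit CXCL12 in MM330 and HCC1428 and PDZK1 in siNT of MM330.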
